A study of Mus musculus with 10 samples.

Results

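*Htr2b*, *Ackr3* and *Adgrl2* are 3 genes for seven-pass receptors, and their transcripts are described here in myeloid cells sorted by arginase 1 expression from inflamed mouse spinal cord. They are 3 of the 55487 genes of the deposited count table, and all 3 were among the 13740 genes that passed a filter on low counts. The 3 genes were selected on their high level in ARG1+ cells, so their difference between ARG1+ and ARG1- cells is given as a description and carries no test. Cells came from 5 male C57BL/6 mice, 8 to 12 weeks old, with the *Arg1*-eYFP reporter (Arg1tm1Lky), in which yellow fluorescent protein (YFP) marks *Arg1* expression. All 5 mice had experimental autoimmune encephalomyelitis (EAE), a model of multiple sclerosis, at peak disease after immunization with MOG35-55 peptide in complete Freund's adjuvant and injection of pertussis toxin. Viable CD45+CX3CR1+ cells without Ly6G and CD3 were sorted from each spinal cord into 200000 YFP+ (ARG1+) and 100000 YFP- (ARG1-) cells. The 5 ARG1+ and 5 ARG1- libraries of bulk RNA therefore were paired by mouse (m2, m6, m234, m235, m236), and no unimmunized animals were part of this comparison. The gate took cells by CX3CR1 and did not part infiltrating monocyte-derived cells from the macrophages that reside at the borders of the central nervous system.

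The 3 receptors belong to different branches of one superfamily. HTR2B is a serotonin receptor that couples to the G protein Gq, which activates phospholipase C and releases calcium from stores. ACKR3, also called CXCR7, is an atypical chemokine receptor that binds CXCL12 and CXCL11, recruits arrestins instead of signaling through G proteins in the usual way, and takes its ligands up for degradation. ADGRL2 (latrophilin 2) is an adhesion receptor with a long extracellular part that binds FLRT and teneurin proteins on neighboring cells and is best known from synapses and endothelium.

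*Htr2b* (ENSMUSG00000026228) lies on the reverse strand of chromosome 1 from 86099026 to 86111970 of GRCm38, with 2083 exon bases in 4 exons. *Ackr3* (ENSMUSG00000044337) lies on the forward strand of the same chromosome from 90203980 to 90216751, with 3065 exon bases in 2 exons. *Adgrl2* (ENSMUSG00000028184) lies on the reverse strand of chromosome 3 from 148815583 to 148990555 and has 6438 exon bases in 27 separate stretches. The 250 bases before the first base of the RefSeq transcript are shown for *Htr2b* and *Ackr3* to set the start regions of both genes side by side, since both were high in ARG1+ cells. They come from RefSeq for GRCm38.p6, read 5′ to 3′ on the strand of the gene, and span chr1:86111981-86112230 (reverse strand) for *Htr2b* and chr1:90203730-90203979 (forward strand) for *Ackr3*. For *Htr2b*, the RefSeq start lies slightly upstream of 86111970, where the gene as placed above begins on its strand. Positions are counted from the RefSeq start. Capitals mark matches to 7 short motifs that were searched on both strands.
Htr2b: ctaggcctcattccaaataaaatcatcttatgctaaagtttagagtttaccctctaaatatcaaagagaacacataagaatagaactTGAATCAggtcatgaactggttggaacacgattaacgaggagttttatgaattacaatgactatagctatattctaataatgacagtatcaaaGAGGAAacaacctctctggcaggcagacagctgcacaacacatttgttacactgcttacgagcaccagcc
Ackr3: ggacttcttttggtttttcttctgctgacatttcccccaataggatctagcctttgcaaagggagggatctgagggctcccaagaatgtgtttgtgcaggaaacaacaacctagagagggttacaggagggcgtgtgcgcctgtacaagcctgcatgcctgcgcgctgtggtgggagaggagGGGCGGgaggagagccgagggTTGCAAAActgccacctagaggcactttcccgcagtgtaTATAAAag

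These start regions were unlike in composition and in the motifs they held. The *Htr2b* window had 37.6% G and C and the *Ackr3* window 54.0%, beside a median of 52.4% over the 32851 windows of all genes. In *Htr2b*, TGANTCA, a pattern of AP-1 sites with any base in the center, occurred as TGAATCA from 163 to 157 bases before the start. This pattern was found in 6.75% of all windows. GAGGAA, the core bound by PU.1, a transcription factor of myeloid cells, occurred from 70 to 65 bases before the start of *Htr2b* and in 23.3% of all windows. In *Ackr3*, the TATA box TATAAA stood 8 to 3 bases before the start in the RefSeq entry (12.4% of all windows), the GC box GGGCGG stood 68 to 63 bases before it (32.7%), and TTGCNNAA, a pattern of C/EBP sites, occurred as TTGCAAAA 47 to 40 bases before it (9.56%). TGACG (17.8% of all windows) and ACGTG (16.6%) were in neither window, and none of the matches overlapped another. For *Adgrl2*, 152 of the 250 bases before the RefSeq start lay in exons of the gene's other transcripts, and the window was not used.

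The 10 libraries held 8396863 to 35455643 counts. Levels are given as CPM, the counts of a gene per 1000000 counts of the library, with TMM library sizes. Animal m234 gave the smallest ARG1- library, in which 1 CPM corresponded to 8.40 counts before that scaling, while the next lowest ARG1- total was 28212174. *Arg1*, the gene behind the reporter, was at 814 ± 174 CPM in ARG1+ against 18.4 ± 4.96 CPM in ARG1- libraries (SD, n = 5 per group), a log2 fold change of 5.45 (SE 0.213, FDR 1.07e-07, edgeR's quasi-likelihood test). Of the 13740 genes, 77 (0.56%) were higher and 122 (0.888%) lower in ARG1+ cells when limits of 0.05 on the false discovery rate (FDR) and of 1 on the absolute log2 fold change were applied together. With the animal as a block, 213 genes were lower. At the FDR limit alone, 6.82% of genes were higher and 6.15% lower. Each fold change is the ARG1+ level over the ARG1- level. In bulk libraries, fewer cells of a type and less RNA per cell cannot be told apart.

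*Htr2b* varied most of the 3 receptors between ARG1- libraries and had the largest fold change, by less than its SE over that of *Ackr3*. This order was reversed without the ARG1- library of m234, with log2 fold changes of 1.798 for *Htr2b* and 1.985 for *Ackr3*. In ARG1+ cells, *Htr2b* was at 12.5 CPM in m2, 11.6 in m6, 9.50 in m234, 14.9 in m235 and 13 in m236. In ARG1- cells, it was at 2.08 CPM in m2, 2.7 in m6, 0.706 in m234, 5.79 in m235 and 3.70 in m236. The groups did not overlap, and m235 was highest and m234 lowest in both groups. The value of the ARG1- library of m234 rested on 6 counts (95% Poisson interval 2.20 to 13.1, which covers counting error only), beside 66 to 162 counts in the other ARG1- and 294 to 491 in the ARG1+ libraries. The group means were 12.3 ± 1.97 CPM in ARG1+ against 3.0 ± 1.90 CPM in ARG1- cells (SD, n = 5 per group) with a log2 fold change of 1.95 (SE 0.315) or 3.87-fold. Without the ARG1- library of m234, the ARG1- mean was 3.57 ± 1.63 CPM (SD, n = 4), and the ratio of the group means was 3.45 in place of 4.10. The log2 fold change was 1.80 without this library and moved furthest, to 2.30, without the ARG1- library of m235, where *Htr2b* was highest. Within animals, the ARG1+ level was 6.01 times the ARG1- level in m2, 4.31 times in m6, 13.4 times in m234, 2.57 times in m235 and 3.50 times in m236. The animals ranked by this ratio in the reverse order of their ARG1- levels, which enter the ratio, and their log2 values had a mean of 2.32 and an SD of 0.91.

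*Ackr3* was higher in ARG1+ cells by a similar factor in each animal. In ARG1+ cells, it was at 11.0 CPM in m2, 8.42 in m6, 9.01 in m234, 12.4 in m235 and 5.06 in m236. In ARG1- cells, it was at 3.0 CPM in m2, 2.22 in m6, 3.18 in m234, 2.90 in m235 and 1.17 in m236. Animal m236 was lowest in both groups, and its ARG1+ library still lay above all ARG1- libraries. The libraries held 155 to 409 counts of *Ackr3* in ARG1+ and 27 to 95 in ARG1- cells. The means were 9.18 ± 2.79 CPM (SD, n = 5) and 2.49 ± 0.824 CPM (SD, n = 5), a log2 fold change of 1.92 (SE 0.280) or 3.78-fold. The ratio of ARG1+ to ARG1- was 3.66 in m2, 3.79 in m6, 2.84 in m234, 4.28 in m235 and 4.33 in m236, whose log2 values had an SD of 0.25. The low level of m236 was thus shared by both of its libraries.

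*Adgrl2*, the gene with the most exon bases of the 3, had the smallest fold change and was the least variable in ARG1+ cells. In ARG1+ cells, it was at 24.6 CPM in m2, 23.3 in m6, 21.4 in m234, 25.3 in m235 and 27.4 in m236. In ARG1- cells, it was at 8.11 CPM in m2, 12 in m6, 11.7 in m234, 11.5 in m235 and 13.7 in m236. The groups did not overlap, 4 ARG1- libraries lay close together, and that of m2 was below them. The counts ran from 662 to 840 in ARG1+ and from 99 to 432 in ARG1- libraries. The means were 24.4 ± 2.26 CPM (SD, n = 5) and 11.4 ± 2.02 CPM (SD, n = 5), a log2 fold change of 1.10 (SE 0.123) or 2.15-fold. The ratio was 3.04 in m2, 1.94 in m6, 1.84 in m234, 2.20 in m235 and 2.01 in m236, so that m2 stood above the other animals.

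**Figure D1:**
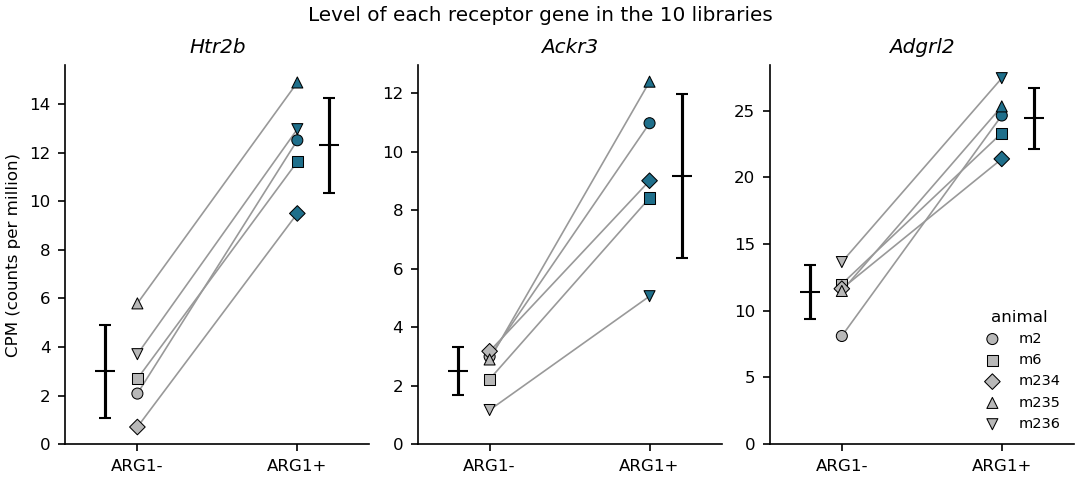
Level of *Htr2b*, *Ackr3* and *Adgrl2* in CPM (vertical axes, from 0) in the 5 ARG1- (gray) and 5 ARG1+ (blue) libraries, with lines that join the libraries of 1 animal and bars for the mean and SD of each group (n = 5). Every line goes up from ARG1- to ARG1+, the groups do not overlap, and the ARG1- library of m234 is lowest for *Htr2b* at 0.706 CPM.

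In the comparison that selected the 3 receptors, 0.56% of all tested genes were higher past both limits. All 3 passed these limits, which is no test of them. *Adgrl2* fell below the limit on the fold change without animal m2, at a log2 fold change of 0.9934. The log2 fold changes of the 3 receptors ranked 4, 5 and 63 among the 13740 genes for *Htr2b*, *Ackr3* and *Adgrl2*. Nothing is read from these ranks, since the receptors were chosen for being high in ARG1+ cells. Groups without overlap, with every ARG1+ above every ARG1- library, were found for 6.15% of tested genes, and the reverse for 5.2%. The coefficient of variation over the 5 libraries was 16% for *Htr2b*, 30.4% for *Ackr3* and 9.24% for *Adgrl2* in ARG1+ cells, beside a median of 10.1% over all tested genes. In ARG1- cells, it was 63.5% for *Htr2b*, 33.1% for *Ackr3* and 17.8% for *Adgrl2*, beside a median of 11.8%. Per exon length, the order of the 3 differed from that in CPM. In ARG1+ cells, *Htr2b* was at 5.90 RPKM (CPM per kilobase of exon), *Adgrl2* at 3.79 and *Ackr3* at 2.99. In ARG1- cells, the order was *Adgrl2* at 1.77, *Htr2b* at 1.44 and *Ackr3* at 0.813 RPKM. In ARG1+ cells, *Htr2b* was above the other two by more than the SD between libraries, whereas *Adgrl2* and *Ackr3* were not that far apart. In ARG1- cells, neither *Adgrl2* nor *Ackr3* differed from *Htr2b* by more than the SD of *Htr2b*.

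Within the basic annotation, reads of other genes could be told apart from those of the 3 receptors by sequence. None of their 50-base stretches, the length of a read, occurred in another transcript of the basic annotation. *Psmd1*, a subunit of the proteasome, spans *Htr2b* on the opposite strand. It shared 0 exon bases with *Htr2b* in the basic annotation, the kind used for counting, and 252 bases (11.8%) in the comprehensive one. *Psmd1* was at 113 ± 8.48 CPM in ARG1+ against 98.4 ± 11.3 CPM in ARG1- cells (SD, n = 5 per group) with a log2 fold change of 0.20 (SE 0.0824, FDR 0.130; FDR 0.00454 with the animal as a block). The sources used here do not state the use of strand in counting, and the share of *Psmd1* reads in the *Htr2b* counts was not tested. *Gm43573*, opposite *Adgrl2*, shared 0 exon bases in the basic and 202 (1.42%) in the comprehensive annotation and had 32 counts over the ARG1+ and 3 over the ARG1- libraries.

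Each receptor had its own closest genes when profiles over the 10 libraries were compared by the root mean square difference of log2 CPM after centering on the gene's mean. For *Htr2b*, these were *Npy* (difference 0.36), which encodes neuropeptide Y, *Fam71f2* (0.49) and *Atp6v0d2* (0.51), a subunit of the proton pump that acidifies lysosomes. *Atp6v0d2* was at 74.3 ± 27.1 CPM in ARG1+ against 20.5 ± 7.87 CPM in ARG1- cells (SD, n = 5 per group), and *Npy* was at 1.22 ± 0.357 CPM and 0.334 ± 0.227 CPM (SD, n = 5 each). Among ARG1- libraries, these 3 genes were lowest in m234 and highest in m235, as *Htr2b* was. Nothing is read from this shared order, since the genes were picked for likeness to *Htr2b* over these same libraries. The low values of m234 rested on 0 counts of *Npy*, 15 of *Fam71f2* and 74 of *Atp6v0d2*.

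For *Ackr3*, the closest genes were *Flrt2* (0.42), *Sox4* (0.43), a transcription factor, and *Cxcl1* (0.46), a chemokine that attracts neutrophils. *Sox4* was at 56.1 ± 12.1 CPM in ARG1+ against 19.3 ± 4.18 CPM in ARG1- cells (SD, n = 5 per group), and *Cxcl1* was at 104 ± 23.7 CPM and 41.7 ± 8.85 CPM (SD, n = 5 each). For *Adgrl2*, they were *Gdpd1* (0.11), a phosphodiesterase, *Lrrc27* (0.18) and *Stra6l* (0.18). *Gdpd1* was at 27.0 ± 1.99 CPM in ARG1+ against 14.5 ± 2.86 CPM in ARG1- cells (SD, n = 5 per group). Between the receptors, the differences were 0.98 between *Htr2b* and *Ackr3*, 0.90 between *Htr2b* and *Adgrl2*, and 0.72 between *Ackr3* and *Adgrl2*, and that each lies further from the other receptors than from its closest genes follows from how these were picked. Genes picked by likeness to a receptor differ between the groups as it does, so no test is given for them here.

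**Figure D2:**
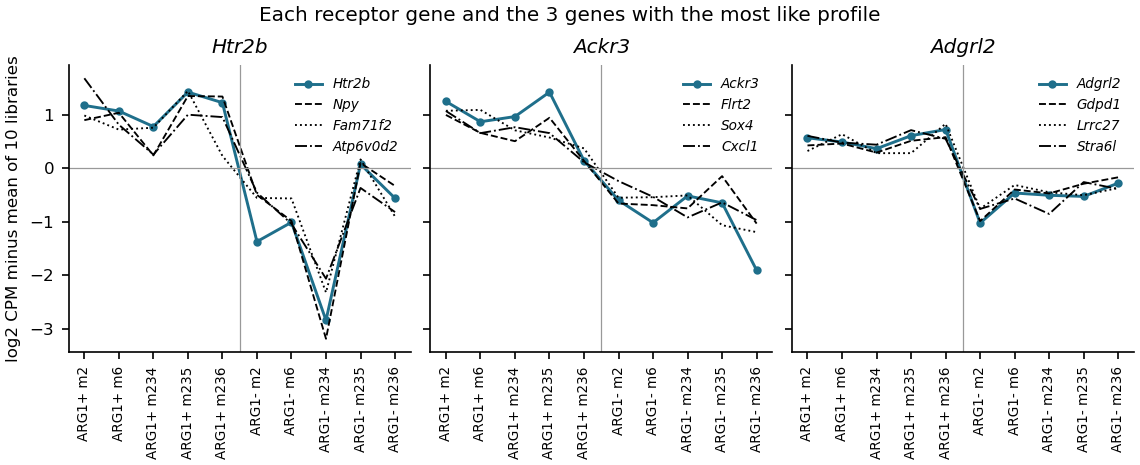
Log2 CPM minus the gene's mean over 10 libraries (vertical axis) for each receptor (blue line with points) and its 3 closest genes (black lines), with the 5 ARG1+ libraries left and the 5 ARG1- libraries right of the gray line. *Htr2b* and its neighbors fall furthest in the ARG1- library of m234, *Ackr3* is lowest in the ARG1- library of m236, and *Adgrl2* is lowest in the ARG1- library of m2.

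Against other receptors of the superfamily, the 3 stood at a middle level in ARG1+ cells and lower in ARG1- cells. Of the 60 other seven-pass receptors in the pathway lists that passed the filter, 27 had a higher RPKM than *Htr2b* in ARG1+ cells and 43 in ARG1- cells. The same counts were 31 and 49 for *Ackr3* and 31 and 42 for *Adgrl2*. The median of the 60 was 4.69 RPKM in ARG1+ and 5.95 RPKM in ARG1- cells. None of the 60 had a larger log2 fold change than any of the 3, which were chosen for this. Their median log2 fold change was -0.25, with 3 higher and 15 lower at the FDR limit. With the animal as a block, 10 were higher and 23 lower. The 3 higher ones without the block were *S1pr1* and *S1pr2*, receptors for sphingosine 1-phosphate, and the adhesion receptor *Celsr3*. Of these, *S1pr2* and *Celsr3* were named after their values were seen. *S1pr1*, which guides lymphocytes out of lymphoid organs, was at 16.2 ± 2.83 CPM in ARG1+ against 7.80 ± 1.17 CPM in ARG1- cells (SD, n = 5 per group; log2 fold change 1.07, SE 0.135, FDR 6.87e-04), which was near that of *Adgrl2*.

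**Figure D3:**
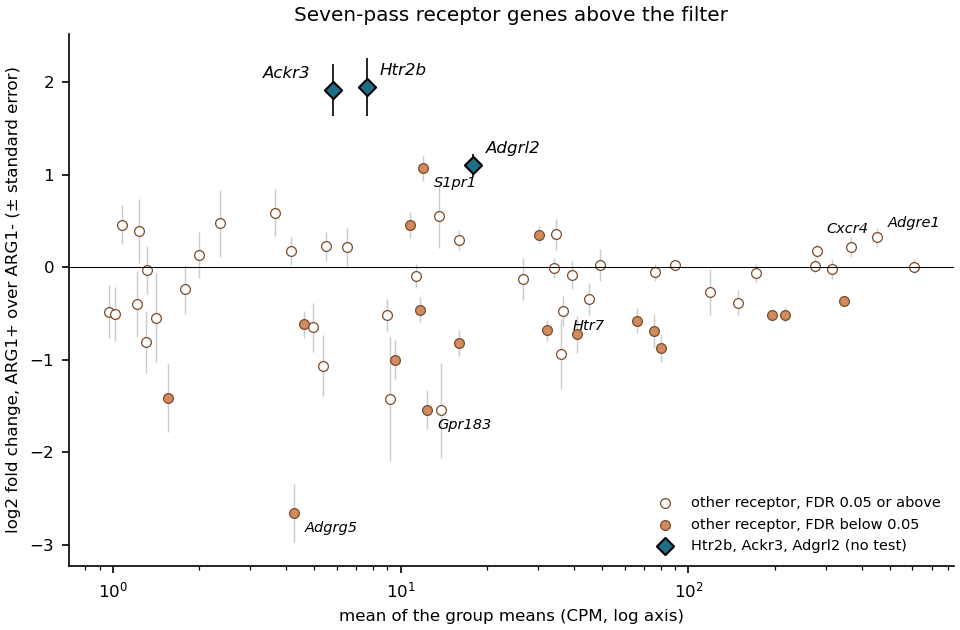
Log2 fold change, ARG1+ over ARG1-, with its standard error (vertical axis) against the mean of the 2 group means in CPM (horizontal log axis) for 60 other seven-pass receptors (circles, filled at an FDR below 0.05) and the 3 receptors chosen for their high level in ARG1+ cells (diamonds, no test). *Htr2b* (1.95), *Ackr3* (1.92) and *Adgrl2* (1.10) lie above the others, of which *S1pr1* (1.07) comes closest.

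For the serotonin branch, *Htr2b* was measured beside few other components. Of the 13 other serotonin receptors, 12 did not pass the filter, 7 of these had 0 counts in all 10 libraries, and the one with the most reads had 26 counts in all. A count of 0 over the ARG1+ libraries allows up to 0.0191 CPM and over the ARG1- libraries up to 0.0227 CPM (3 counts per group, counting error only). *Htr7*, a serotonin receptor that couples to Gs, was the only other one tested. It was at 30.6 ± 6.14 CPM in ARG1+ against 42.4 ± 8.68 CPM in ARG1- cells (SD, n = 5 per group), with a log2 fold change of -0.48 (SE 0.163, FDR 0.0752) and a lower level in ARG1+ cells in 5 of 5 animals. With the animal as a block, its FDR was 4.85e-04. Per exon length, *Htr7* stood above *Htr2b* in both groups, at 9.59 and 13.3 RPKM.

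The genes that make and remove serotonin were mostly at the limit of detection. Of 11 genes, 2 passed the filter. *Aldh2*, a mitochondrial aldehyde dehydrogenase that also acts on the aldehyde formed from serotonin, was at 191 ± 14.8 CPM in ARG1+ against 148 ± 15.1 CPM in ARG1- cells (SD, n = 5 per group) and rose by a log2 fold change of 0.37 (SE 0.0780, FDR 0.0107). *Maoa*, the monoamine oxidase that breaks serotonin down, was at 2.96 ± 0.634 CPM and 2.18 ± 0.302 CPM (SD, n = 5 each; log2 fold change 0.47, SE 0.173, FDR 0.0942). *Tph1*, the enzyme of serotonin synthesis outside the brain, had 1 count in all libraries together, and its neuronal counterpart *Tph2* and the transporter *Slc6a4* had 0; these 3 were named after their values were seen.

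Among the genes of Gq signaling, through which HTR2B acts, 1 of 20 tested was higher and 2 were lower at the FDR limit, with a median log2 fold change of -0.07. Counts with the animal as a block were 4 and 6. *Rgs1*, a regulator that shortens G protein signals, was the higher one, at 401 ± 43.1 CPM in ARG1+ against 250.2 ± 20.3 CPM in ARG1- cells (SD, n = 5 per group; log2 fold change 0.68, SE 0.0828, FDR 5.13e-04). *Prkcd*, a protein kinase C and the most abundant gene of the list (here and below, the one with the highest CPM, which does not account for length), was lower, at 533 ± 74.7 CPM and 687 ± 75.6 CPM (SD, n = 5 each; log2 fold change -0.37, SE 0.103, FDR 0.0373). *Itpr1*, the calcium channel opened by the product of phospholipase C, was the other lower gene (log2 fold change -0.39, SE 0.0976, FDR 0.0221). *Rgs16* had the largest estimate, 0.87 (SE 0.465, FDR 0.231). *Rgs1* and *Itpr1* were named after their values were seen.

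For ACKR3, the genes of CXCL12 and CXCL11 were low in these cells. *Cxcl12* did not pass the filter and was at 0.126 ± 0.110 CPM in ARG1+ against 0.177 ± 0.130 CPM in ARG1- cells (SD, n = 5 per group). *Cxcl11* RNA fell from 3.67 ± 1.02 CPM (SD, n = 5) in ARG1- to 1.31 ± 0.314 CPM (SD, n = 5) in ARG1+ cells, which gave a log2 fold change of -1.48 (SE 0.238, FDR 0.00261). *Dpp4*, a peptidase that cuts CXCL12, was at 0.372 ± 0.250 CPM in ARG1+ against 4.47 ± 2.17 CPM in ARG1- cells (SD, n = 5 per group; log2 fold change -3.55, SE 0.457, FDR 8.15e-04). These were the 2 of 7 tested genes of the list that changed at the FDR limit. Both were lower in 5 of 5 animals, and the median of the 7 was 0.01. With the animal as a block, 2 were higher and 3 lower.

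*Cxcr4*, the receptor through which CXCL12 signals to G proteins, was at 396 ± 53.0 CPM in ARG1+ against 341 ± 42.1 CPM in ARG1- cells (SD, n = 5 per group). Its log2 fold change was 0.22 (SE 0.107, FDR 0.191; FDR 0.00464 with the animal as a block), with a higher level in ARG1+ cells in 5 of 5 animals. Per exon length, *Cxcr4* was at 220 RPKM in ARG1+ and 189 RPKM in ARG1- cells, far above *Ackr3* in both. *Cd74*, which presents antigen with class II molecules and is a receptor for MIF, was the most abundant gene of the list, at 6507 ± 1931 CPM and 7972 ± 783 CPM (SD, n = 5 each; log2 fold change -0.29, SE 0.169, FDR 0.268; FDR 0.0167 with the animal as a block). The other atypical receptors *Ackr1*, *Ackr2* and *Ackr4* did not pass the filter, with 123, 1 and 1 counts in all. *Cxcl12*, *Cxcr4* and these 3 were named after their values were seen.

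Arrestins and receptor kinases, which end G protein signals and on which ACKR3 relies, passed the filter in 7 of 7 cases. None was higher at the FDR limit and 2 were lower, *Grk3* (log2 fold change -0.75, SE 0.144, FDR 0.00660) and *Arrb2* (-0.21, SE 0.0601, FDR 0.0418). *Grk3* was at 34.2 ± 6.15 CPM in ARG1+ against 57.7 ± 10.7 CPM in ARG1- cells (SD, n = 5 per group), and *Arrb2* at 176 ± 4.75 CPM and 203 ± 16.6 CPM (SD, n = 5 each). *Grk2* was the most abundant, at 276 ± 12.1 CPM and 297 ± 11.8 CPM (SD, n = 5 each; log2 fold change -0.11, SE 0.0517, FDR 0.192; FDR 0.0285 with the animal as a block). The median of the list was 0.01, and with the animal as a block 0 were higher and 3 lower. *Arrb2* was named after its values were seen.

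ADGRL2 is 1 of several latrophilins, and the other members of this family were at low levels. *Adgrl1* was at 0.924 ± 0.152 CPM in ARG1+ against 1.69 ± 0.812 CPM in ARG1- cells (SD, n = 5 per group; log2 fold change -0.81, SE 0.336, FDR 0.130). *Adgrl3* and *Adgrl4* did not pass the filter, with 14 and 105 counts in all. Per exon length, *Adgrl2* stood above these 3, at 3.79 RPKM beside 0.108, 0.00679 and 0.0834 RPKM in ARG1+ cells and at 1.77 RPKM beside 0.199, 0.00519 and 0.0820 RPKM in ARG1- cells.

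Of the ligands of latrophilins, *Flrt2* was higher and *Flrt3* differed little. *Flrt2* was at 14.4 ± 3.34 CPM in ARG1+ against 5.78 ± 1.39 CPM in ARG1- cells (SD, n = 5 per group) with a log2 fold change of 1.31 (SE 0.190, FDR 0.00143), with a higher level in 5 of 5 animals. It was the only 1 of 4 tested genes of the list that passed the FDR limit, and it was also the gene closest in profile to *Ackr3*. *Flrt3* was the most abundant, at 27.8 ± 6.70 CPM and 26.0 ± 6.10 CPM (SD, n = 5 each; log2 fold change 0.08, SE 0.176, FDR 0.801). *Tenm4* was the only teneurin tested, at 0.983 ± 0.306 CPM and 0.687 ± 0.471 CPM (SD, n = 5 each; log2 fold change 0.36, SE 0.412, FDR 0.595). *Adgrl1*, *Adgrl3*, *Adgrl4* and *Tenm4* were named after their values were seen.

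Among 25 other adhesion receptors, 10 were tested, 1 was higher and 2 were lower (2 and 3 with the animal as a block). *Adgrg5* was at 1.15 ± 0.401 CPM in ARG1+ against 7.39 ± 2.69 CPM in ARG1- cells (SD, n = 5 per group; log2 fold change -2.66, SE 0.311, FDR 4.39e-04). *Adgre1*, which encodes the macrophage marker F4/80 and was the most abundant, was at 503 ± 76.6 CPM and 402 ± 36.5 CPM (SD, n = 5 each; log2 fold change 0.32, SE 0.103, FDR 0.0597; FDR 9.35e-04 with the animal as a block). The median log2 fold change of the 10 was -0.21, with 4 estimates above and 6 below 0.

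Of 62 other seven-pass receptors of myeloid cells, 45 were tested, with 2 higher, 13 lower (7 and 19 with the animal as a block) and a median log2 fold change of -0.27. *Gpr183*, a receptor for oxysterols, was at 6.26 ± 1.63 CPM in ARG1+ against 18.4 ± 4.53 CPM in ARG1- cells (SD, n = 5 per group; log2 fold change -1.54, SE 0.210, FDR 0.00109). *Ffar2*, a receptor for short-chain fatty acids, was at 0.877 ± 0.480 CPM and 2.24 ± 0.754 CPM (SD, n = 5 each; log2 fold change -1.41, SE 0.367, FDR 0.0277). The FDR of *Ffar2* was 0.0532 to 0.0908 in 8 of the cases in which a library or an animal was left out. *Gpr35* was the most abundant, at 303 ± 17.2 CPM and 390.1 ± 15.8 CPM (SD, n = 5 each; log2 fold change -0.37, SE 0.0558, FDR 0.00195).

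Over all 8 lists, 96 of 166 genes were tested, of which 6 (6.25%) were higher and 21 (21.9%) lower at the FDR limit, beside 6.82% and 6.15% of all tested genes. Past both limits, 2 were higher and 5 lower. The median log2 fold change of the 96 was -0.09, beside 0.00 over all tested genes. With the animal as a block, 17 of the 96 were higher and 35 lower, in a fit that called 16.8% of all tested genes higher and 18.3% lower.

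**Figure D4:**
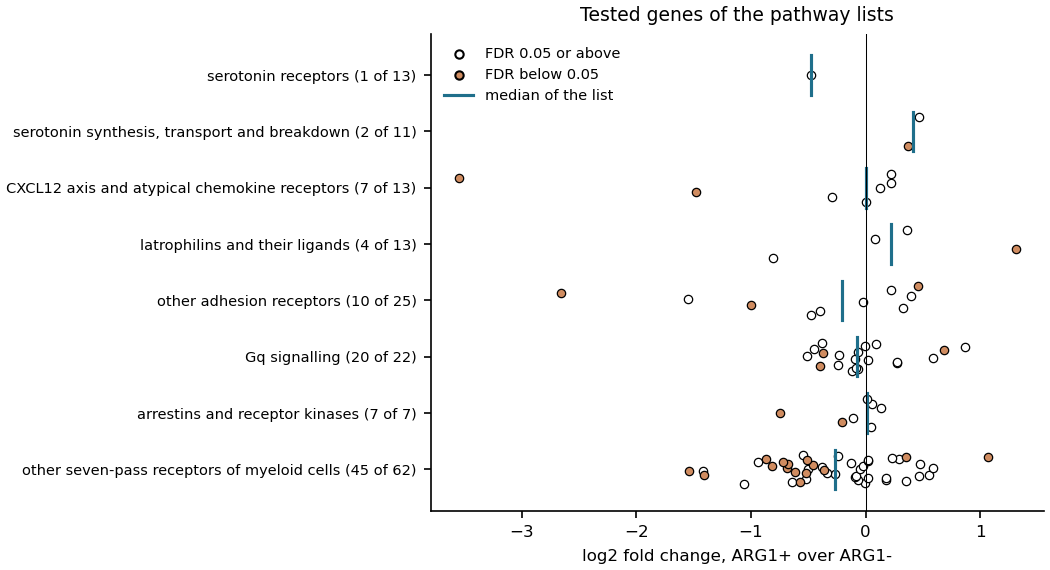
Log2 fold change, ARG1+ over ARG1- (horizontal axis), of the tested genes of 8 pathway lists that leave out *Htr2b*, *Ackr3* and *Adgrl2* (points, filled at an FDR below 0.05), with the median of each list as a blue bar and the number tested of all listed genes in parentheses. *Flrt2* (1.31) and *S1pr1* (1.07) lie furthest right, and *Dpp4* (-3.55) and *Adgrg5* (-2.66) furthest left.

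Markers of the cells that the gate could hold moved with the same comparison. The 7 markers of border-associated macrophages summed to 701 to 1364 CPM in ARG1+ and 322 to 804 CPM in ARG1- libraries and were higher in 5 of 5 animals. Of the 3 tested, *Pf4* (log2 fold change 1.88, SE 0.315, FDR 0.00324) and *Mrc1* were higher past both limits, and *F13a1* made up most of the sum (0.78, SE 0.238, FDR 0.0511; FDR 1.62e-05 with the animal as a block). *F13a1* was at 1021 ± 238 CPM in ARG1+ against 595 ± 193 CPM in ARG1- cells (SD, n = 5 per group). The other 4 did not pass the filter. Their counts over the ARG1+ and the ARG1- libraries were 15 and 8 for *Lyve1*, 6 and 1 for *Cd163*, 23 and 9 for *Folr2*, and 139 and 83 for *Cbr2*. The 5 monocyte markers summed to 678 to 1020 CPM in ARG1+ and 1454 to 1962 CPM in ARG1- libraries, and 4 were lower past both limits. *Ly6c2*, the most abundant, had a log2 fold change of -0.45 (SE 0.300, FDR 0.338; FDR 2.62e-04 with the animal as a block). The part of these cells in the levels of *Htr2b*, *Ackr3* and *Adgrl2* was not tested.

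The 7 microglia markers summed to 135 to 274 CPM in ARG1+ and 173 to 853 CPM in ARG1- libraries and were lower in ARG1+ cells in 5 of 5 animals. None of the 7 passed the FDR limit, and 6 were lower with the animal as a block. *Siglech* had the largest estimate (-1.57, SE 0.554, FDR 0.0823; FDR 0.0242 with the block) and *Olfml3* was the most abundant (-0.61, SE 0.341, FDR 0.253). Within ARG1- cells, the sum was 460 CPM in m2, 256 in m6, 853 in m234, 173 in m235 and 304 in m236. The ARG1- library with the most microglia marker RNA (m234) had the least *Htr2b*, and the library with the least (m235) had the most. *Ackr3* and *Adgrl2* did not follow this order in ARG1- cells, where m234 was highest for *Ackr3* and in the middle for *Adgrl2*. Among ARG1+ libraries, m235 again had the least microglia marker RNA (135 CPM) and the most *Htr2b*. The highest sum, 274 CPM, was in m236, whose *Htr2b* was below that of m235 only. *Htr2b* was lowest in m234, whose sum of 264.5 CPM was near that of m2 (264.9 CPM). The sum of the markers of border-associated macrophages, mostly *F13a1*, was also lowest in m234 in both groups (701 CPM in its ARG1+ library, 322 in the other). It was highest in m236 in both. The part of microglia or border-associated macrophages in these values was not tested.

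Of the cell types outside the myeloid lineage in the lists, several had markers near 0. Endothelial cells had 2 of 4 tested markers lower in ARG1+ cells, with a sum that was mostly *Flt1*. Endothelial markers, of interest since endothelium expresses *Ackr3* and *Adgrl2*, summed to 71.9 to 131 CPM in ARG1+ and 116 to 154 CPM in ARG1- libraries and were higher in ARG1+ cells in 0 of 5 animals. *Flt1* was at 87.3 ± 18.2 CPM in ARG1+ against 121 ± 13.5 CPM in ARG1- cells (SD, n = 5 per group; log2 fold change -0.47, SE 0.132, FDR 0.0370). *Kdr* had the largest change (-0.82, SE 0.200, FDR 0.0204). *Pecam1* (-0.01, SE 0.323, FDR 0.983) and *Cdh5* (-0.11, SE 0.421, FDR 0.887) did not pass the FDR limit. Mean CPM in ARG1+ and ARG1- cells was 4.42 and 7.89 for *Kdr*, 7.18 and 7.42 for *Pecam1*, and 0.980 and 0.966 for *Cdh5*. *Cldn5* (0.412 and 0.752 CPM), *Tek* (0.106 and 0.165 CPM) and *Esam* (0.574 and 0.609 CPM) did not pass the filter. The part of endothelial cells in the levels of *Ackr3* and *Adgrl2* was not tested. Neuron markers summed to at most 0.278 CPM and T cell markers to at most 1.17 CPM in any library. Fibroblast and mural markers summed to 0.788 to 3.21 CPM in ARG1+ and 1.06 to 3.40 CPM in ARG1- libraries, B cell markers to 0.347 to 0.646 and 0.334 to 0.611 CPM, and platelet markers, of interest as carriers of serotonin, to 1.08 to 1.70 and 0.968 to 2.84 CPM. *Cpa3*, *Mcpt4*, *Tpsb2* and *Fcer1a*, which define mast cells, had 0 counts in all 10 libraries, and *Kit*, the remaining gene of that list, had a log2 fold change of -1.74 (SE 0.192, FDR 3.49e-04).

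The remaining lists are given by their sums. Dendritic cell markers summed to 8.95 to 23.1 CPM in ARG1+ and 17.6 to 32.3 CPM in ARG1- libraries, with *Flt3* lower (-3.59, SE 0.375, FDR 2.40e-04) and *Clec9a* the most abundant (0.28, SE 0.284, FDR 0.547). Astrocyte markers summed to 14.7 to 25 and 18.6 to 30.0 CPM, neutrophil markers to 16.3 to 29.4 and 10.8 to 31.1 CPM, and oligodendrocyte markers, mostly *Mbp*, to 111 to 146 and 99.5 to 146 CPM. The sum of the oligodendrocyte markers was higher in ARG1+ cells in 5 of 5 animals. The 5 genes that mark the sorted cells summed to 3541 to 4245 CPM in ARG1+ and 3707 to 5371 CPM in ARG1- libraries, with *Csf1r* the most abundant and *Cx3cr1*, a gene of the gate, at 140 ± 67.0 CPM (SD, n = 5) and 282 ± 176 CPM (SD, n = 5; log2 fold change -1.01, SE 0.447, FDR 0.153; FDR 9.24e-05 with the animal as a block).

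**Figure D5:**
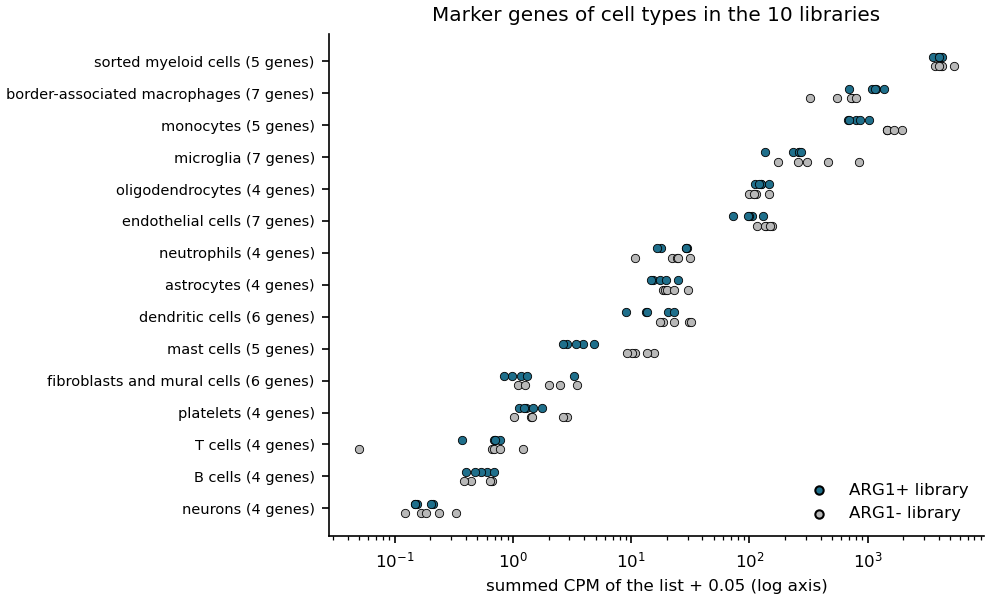
Summed CPM of marker lists of 15 cell types plus 0.05 (horizontal log axis) in the 5 ARG1+ (blue) and 5 ARG1- (gray) libraries, 1 point per library. Border-associated macrophage markers sit at 701 to 1364 CPM in ARG1+ and 322 to 804 CPM in ARG1- libraries, monocyte markers at 678 to 1020 and 1454 to 1962 CPM.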

How the data were processed

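The authors sorted the cells, isolated RNA with TRIzol, made strand-specific libraries (NEBNext Ultra II Directional) and read 50 bases from 1 end. They aligned reads to GRCm38 with STAR (2.7.10b per the submitters' processing notes) and the basic annotation of Ensembl 100, counted them on transcripts with summarizeOverlaps in Union mode and summed them to genes. The deposited values are whole-number read counts per gene without normalization; all 10 columns were used. The strand setting of the counting step is not stated in these sources.

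The filter kept genes whose CPM was above 1 in 3 or more libraries, and these were fitted with edgeR's quasi-likelihood method (edgeR 4.0.16, R 4.3.3, TMM library sizes, no block, all 10 libraries, Benjamini-Hochberg FDR below 0.05). The authors' methods name limma-trend with the same filter and with limits on FDR and on an absolute log2 fold change above 1. Standard errors are the log2 fold change divided by the square root of the F statistic. Per-library CPM was used for means and SD, and RPKM used the exon bases of the basic GENCODE annotation of GRCm38. Alternatives were RLE or library totals, other filters, DESeq2 1.42.0, limma-trend (limma 3.58.1, prior count 2), the animal as a replicate block, no fold change limit, and each library or animal left out. Replicate numbers are animals: residuals of both libraries of an animal correlated at 0.361 to 0.664 across genes, those of different animals at most at 0.0675 (genes are not independent replicates). Counts of libraries within a group gave a chi-square of 17.8 to 71.8 per degree of freedom, above sampling noise. Totals were 8396863 to 35455643 counts.

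The 3 receptors, the lists, the motifs and the rule for naming genes were chosen with earlier results of these data known. Named are the 3 receptors, *Arg1*, the 3 genes closest in profile to each, genes that overlap them, of each pathway list the most abundant gene (highest CPM), the gene with the largest change and those past both limits, and of each marker list the most abundant gene and the gene with the largest change; others are marked in the text or are marker genes. Of the genes that this rule names, 1 is not reported here. The 8 pathway lists and 15 marker lists were written by hand. Profiles were compared on log2 CPM with a prior count of 2. Exon overlap, shared stretches of 50 bases and motifs were computed from the annotation and from RefSeq start regions, which matched all 3 receptors. Protein sequences were not used here.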

Additional observations from a re-analysis of the deposited data

Results flagged for a closer look

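In 124 groups of 5 libraries (the ARG1+ or the ARG1- libraries of the genes named with a level or a fold change), 7 had a library whose distance from the nearest other exceeded 0.71 of the whole range (Dixon's limit for 5). Chance alone flags about 1 in 20 groups, and none of the 7 was a value of *Htr2b*, *Ackr3* or *Adgrl2*.

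*Arg1* was at 27.0 CPM in the ARG1- library of m2 and at 14.3 to 17.9 CPM in the other ARG1- libraries. *Flrt3*, which encodes a latrophilin ligand, was at 39.5 CPM in the ARG1+ library of m2 and at 22.7 to 26.8 CPM in the others. *Gpr183* was at 3.46 CPM in the ARG1+ library of m235 and at 6.6 to 7.74 CPM in the others. *Maoa* was at 2.71 CPM in the ARG1- library of m234, the one with the fewest counts, and at 1.97 to 2.15 CPM in the others. *Adgrl3*, another latrophilin, was at 0.167 CPM in the ARG1- library of m236 and at 0 to 0.0316 CPM in the others. *Siglech*, a microglia marker, was at 71 CPM in the ARG1- library of m234, which also had the lowest *Htr2b*, and at 6.51 to 20.2 CPM in the others. *Slc1a2*, an astrocyte marker, was at 24.5 CPM in the ARG1- library of m235 and at 11.5 to 14.7 CPM in the others.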

How the results depend on the processing

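The log2 fold changes of the 3 receptors kept their direction under all 22 alternatives each and moved by less than the SD of the log2 difference between the 5 animals (0.87 for *Htr2b*, 0.24 for *Ackr3* and 0.29 for *Adgrl2*, on log2 CPM with a prior count of 2). Nothing is read from the kept direction, since the receptors were chosen for being high in these ARG1+ libraries. The SD of *Htr2b* includes m234, whose log2 difference of 3.62 rested on 6 counts in the ARG1- library. With libraries or animals left out, the log2 fold changes were 1.80 to 2.30 for *Htr2b*, 1.72 to 2.07 for *Ackr3* and 0.99 to 1.18 for *Adgrl2*. Under the other settings, among them the animal as a replicate block, they were 1.92 to 2.28, 1.87 to 1.93 and 1.07 to 1.13. The background counts moved more. The 122 lower genes became 190 without a filter, 186 with DESeq2, 213 with the animal as a replicate block and 845 without a fold change limit, and the 77 higher genes became 937 without that limit. With libraries or animals left out, there were 53 to 87 higher and 68 to 168 lower genes, with 68 lower without animal m2 and 76 without m6. The 27 pathway genes past the FDR limit became 52 with the replicate block, 7 with the fold change limit and 14 to 29 with libraries or animals left out (14 without m6, 16 without m236). The cause was not tested. Of the 7 pathway genes past both limits, 6 kept an FDR below 0.05 under every alternative, and *Ffar2* lost it in 8. Depth limited *Htr2b* most, with 6 counts in the ARG1- library of m234.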
